A study of Mus musculus with 5 samples.

Results

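The genes described here are 10 that mark neural stem cells, set their state or hold them out of division: Nes, Prom1, Vcam1, Lrig1, Msi1, Msi2, Nr2e1, Bmi1, Hopx and Foxo3. They were taken by symbol from the table of each library, which lists 46078 genes, and all 10 were found. RNA-seq was done on cultured neural stem and precursor cells of the subventricular zone, the layer beside the lateral ventricles of the forebrain that holds stem cells in the adult mouse. The cells came from female C57BL/6 mice with no mutation, 5 to 8 weeks of age by the labels (the study's methods give an older range for its subventricular zone cultures). They were grown as spheres with EGF and FGF, plated on coated plastic and given PBS as a sham exposure, so all groups share the sham exposure and no treated group is part of this comparison. RNA was taken 1 h after PBS in 2 libraries (replicates 1 and 2) and 8 h after PBS in 3 libraries (replicates 13, 14 and 15). Values of the libraries are given in these orders. The model is limited to passaged cells in growth factors, without the vessels, ependyma and fluid that surround the cells in the animal. Levels are in TPM, a gene's share of all transcripts corrected for transcript length, which allows genes to be compared with each other. The sources tie a replicate to an animal for these cultures but do not give the animal of each library. The spread between libraries may therefore hold animal, culture and technical differences.

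Stem cells of the adult subventricular zone are glia-like cells that alternate between quiescence, a reversible rest from division, and activation, in which they divide and give rise to transit-amplifying cells and neuroblasts. Quiescence is held by contacts with the niche and by transcription factors that restrain division, and EGF is the classical signal that drives activated cells to divide in culture. Nestin, the filament protein encoded by Nes, and prominin-1, the surface protein encoded by Prom1 and known as CD133, are used to identify and sort these cells. Musashi RNA-binding proteins, the orphan nuclear receptor TLX (Nr2e1) and the Polycomb protein BMI1 are known for self-renewal, and FOXO3, LRIG1 and VCAM1 for restraint or anchoring of the quiescent cell.

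Some facts of the whole series bear on every value. The library numbers in the labels form 2 series by their leading digit: series 1 holds both 1 h libraries and 8 h replicate 14, and series 2 holds 8 h replicates 13 and 15. The meaning of the numbering was not given in the sources used here. Xist, the RNA of the inactive X chromosome, had 165.3 and 199.7 TPM in the series 2 libraries and at most 0.0611 TPM in the others, whereas 4 genes of the Y chromosome (Uty, Kdm5d, Eif2s3y and Ddx3y) reached a sum of between 137.6 and 180.9 TPM in the series 1 libraries and of at most 0.0253 TPM in series 2. These genes go against the female label in the series 1 libraries and not in the series 2 libraries. Series and these sex-linked genes therefore divide the libraries in the same way, and what belongs to each cannot be told apart. Time divides them in nearly the same way and can be set apart from both only through the single library 8 h replicate 14. The count table, which covers 7599 genes with column totals from 13988166 to 18572154 counts, has 5 of the 10 genes. Its 1 h columns matched the TPM tables of the same name (76.5% of 7552 genes within 0.1 on the log2 scale). Each was read with the counts per TPM of each gene in the other, so this is a single check of the pair. The 8 h columns were read with the counts per TPM of both 1 h libraries. The column named 8 h replicate 13 matched the table of 8 h replicate 14 (77.5%). The column named 8 h replicate 15 matched the table of 8 h replicate 13 (77.5%), and the one named 8 h replicate 14 had no matching table (at most 38.0%). TPM is therefore the main measure here, and counts are given by column name. The labelled cell type was checked on 4 genes: Fabp7, Sox2 and Slc1a3 had means of 8582, 211.7 and 469 TPM, and Nes is described next.

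All 10 genes were expressed in every library, and their levels ranged widely. The mean over the 5 libraries was 732 TPM for Nes, 329 for Lrig1, 160.4 for Msi2 and 104.0 for Bmi1. A middle group followed, with 42.7 TPM for Msi1, 36.8 for Foxo3, 27.9 for Vcam1 and 23.3 for Nr2e1. Hopx and Prom1 were lowest, with 6.76 and 5.98 TPM. Among the 13870 genes with a mean of at least 1 TPM, Nes stood at the 98.8th percentile of level and Prom1 at the 22.5th. The sum over the 10 genes was between 1443 and 1512 TPM per library, and Nes made up between 46.2% and 53.7% of it. From Nes to Msi1, and from Nr2e1 to Hopx, the lowest library of each gene lay above the highest library of the next gene in this order. The ranges of neighbours overlapped for Msi1 and Foxo3, Foxo3 and Vcam1, Vcam1 and Nr2e1, and Hopx and Prom1. The order at the low end depended on the library: Hopx was above Prom1 in the 3 series 1 libraries, with a Prom1 to Hopx ratio of 0.484 and 0.536 at 1 h and 0.481 in 8 h replicate 14, and below it in the series 2 libraries, with ratios of 1.68 and 2.11.

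**Figure D1:**
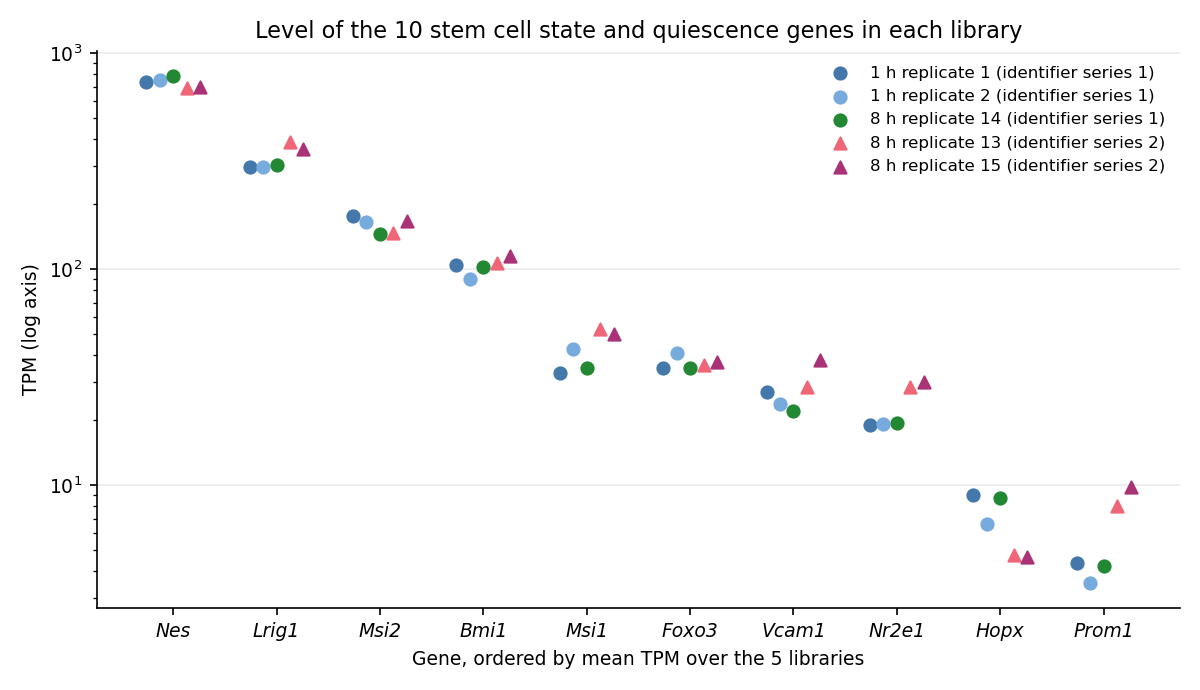
Level of each of the 10 genes in each library, in TPM on a log axis, with genes ordered by their mean over the 5 libraries. Circles are libraries of identifier series 1 and triangles those of series 2; Nes lies between 690.1 and 784 TPM and Prom1 between 3.54 and 9.79 TPM.

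Between 8 h and 1 h, none of the 10 genes was called. With limma on log2(TPM + 1), where a call required an adjusted p of at most 0.05 and a log2 fold change beyond 1 in either direction, 0 of the 10 genes passed, against 0.0433% of all 13870 genes tested (6 genes). An unadjusted p below 0.05 occurred for 0 of the 10 genes and for 12.3% of all genes. The fold changes lay between -0.36 (Hopx) and 0.69 (Prom1), 6 above 0 and 4 below, with a median of 0.16, which was 0.063 above the median of 0.10 over all genes. Both groups were small, and an exact permutation test of 2 against 3 libraries cannot give a two-sided p under 0.1. The libraries of the groups did not overlap for Lrig1 and Nr2e1, both higher at 8 h (2 of 10 genes, against 23.7% of all genes in that direction and 33.1% in either direction), and for no gene in the other direction (9.43% of all genes). After median-ratio scaling, which moved the median fold change of all genes by -0.10, the libraries did not overlap for Lrig1 (higher, against 15.9% of all genes) and for Msi2 and Foxo3 (lower, against 15.8%), while Nr2e1 overlapped and every fold change kept its sign. These are bulk cultures, in which fewer cells of a type and less RNA per cell cannot be told apart.

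**Figure D2:**
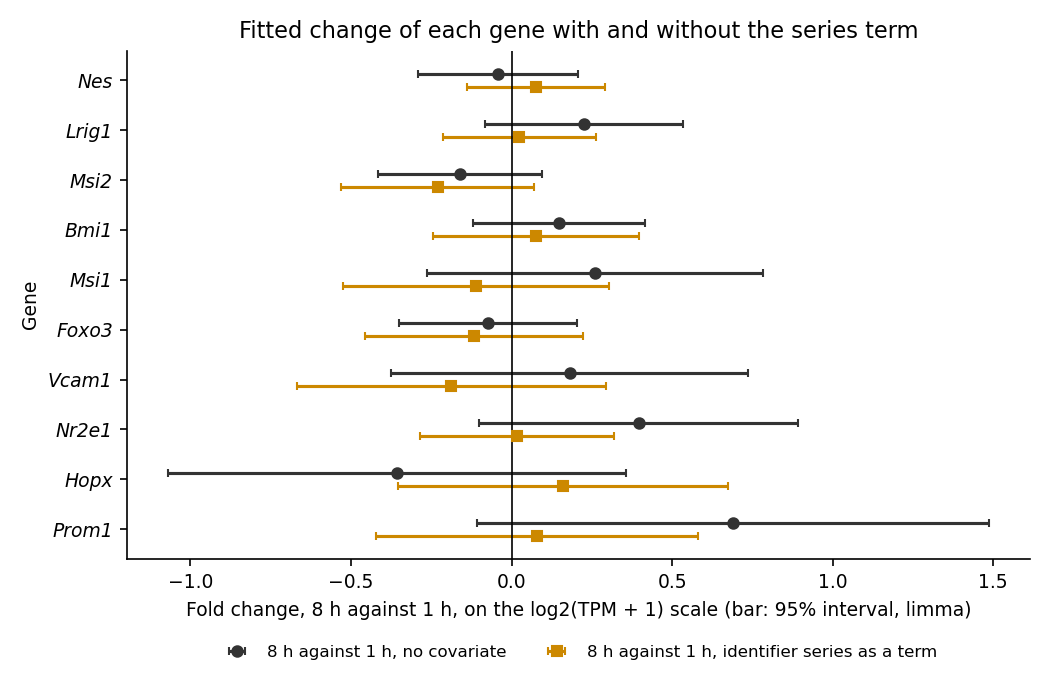
Fold change of each gene, 8 h against 1 h, on the log2(TPM + 1) scale (x axis), as fitted by limma without a covariate (circles) and with the identifier series as a term (squares), where time rests on 8 h replicate 14 alone. Bars are 95% intervals; each interval includes 0, and the widest of the first fit is that of Prom1, from -0.11 to 1.49.

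Nes encodes nestin, the intermediate filament protein of dividing neural precursors. The gene (ENSMUSG00000004891) lies on chromosome 3, 87971078 to 87980451 on GRCm38, plus strand. Its level was 736 and 753 TPM at 1 h against 690.1, 784 and 699 TPM at 8 h. The groups overlapped, with 8 h replicate 14 the highest library and the other 8 h libraries the lowest. The mean was 744 ± 12.6 (SD, n = 2) at 1 h against 724 ± 52.1 TPM (SD, n = 3) at 8 h, a log2 difference of -0.042 ± 0.10 (SE, 95% interval -0.29 to 0.21, limma, adjusted p = 0.848). Its coefficient of variation over the 5 libraries was 5.32%, the lowest of the 10 genes in unscaled TPM, against a median of 15.4% over all genes tested. After median-ratio scaling it was 10.3%, above that of Bmi1, Lrig1 and Foxo3 (5.70%, 7.33% and 9.68%). In the count table, the columns named 8 h replicates 13, 14 and 15 had 3174, 2715 and 2749 CPM (counts scaled to the same column total), all below the 3176 and 3283 CPM of the 1 h columns. The difference there was -0.19 ± 0.11 (SE, edgeR, adjusted p = 0.966).

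Prom1 encodes prominin-1, a pentaspan protein of membrane protrusions, and lies on chromosome 5, 43993620 to 44102032, minus strand (ENSMUSG00000029086). It had 4.36 and 3.54 TPM in the 1 h libraries and 7.98, 4.21 and 9.79 TPM in the 8 h libraries. The series 2 libraries were the high ones, and 8 h replicate 14 lay within the 1 h range, so the groups overlapped. The mean was 3.95 ± 0.580 (SD, n = 2) at 1 h against 7.33 ± 2.84 TPM (SD, n = 3) at 8 h, and the fold change was the highest of the 10 genes, at 0.69 ± 0.33 on the log2 scale (SE, 95% interval -0.11 to 1.49, limma, adjusted p = 0.422). Prom1 was also the most variable gene of the 10, with a coefficient of variation of 45.9%. Its counts were low, at 138 and 173 in the 1 h columns and 166, 229 and 332 in the columns named 8 h replicates 13, 14 and 15, which is 9.87, 10.5, 9.21, 15.8 and 17.9 CPM. The difference in counts was 0.46 ± 0.31 (SE, edgeR, adjusted p = 0.966). The antisense gene Gm16401, which overlaps Prom1, had at most 0.315 TPM.

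Vcam1 encodes an adhesion molecule through which quiescent stem cells hold on to their niche, and its receptor is the integrin made of the products of Itga4 and Itgb1. It lies on chromosome 3, 116109949 to 116129688, minus strand (ENSMUSG00000027962). The gene had 26.9 and 23.9 TPM at 1 h against 28.5, 22.1 and 38.1 TPM at 8 h. The 8 h libraries held both the lowest and the highest value. The mean was 25.4 ± 2.12 (SD, n = 2) at 1 h against 29.6 ± 8.03 TPM (SD, n = 3) at 8 h, with a log2 difference of 0.18 ± 0.23 (SE, 95% interval -0.38 to 0.74, limma, adjusted p = 0.703). The direction rested on 8 h replicate 15, without which the fold change was -0.013 (limma, adjusted p = 0.989). Counts gave -0.13 ± 0.12 (SE, edgeR, adjusted p = 0.966), with 52.8 to 62.1 CPM in the 8 h columns against 64.8 and 58.4 CPM at 1 h.

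Lrig1 encodes a transmembrane protein that limits signalling by the EGF receptor and marks quiescent stem cells in several epithelia and in the brain. The gene (ENSMUSG00000030029) lies on chromosome 6, 94604529 to 94700158, minus strand. Its level was 299.0 and 297.0 TPM in the 1 h libraries and 387, 303 and 361 TPM in the 8 h libraries. All 8 h libraries were above both 1 h libraries, with 8 h replicate 14 at 1.02 times the 1 h mean and the series 2 libraries the high ones. The mean was 298.0 ± 1.45 (SD, n = 2) at 1 h against 350.2 ± 42.8 TPM (SD, n = 3) at 8 h, a log2 difference of 0.22 ± 0.13 (SE, 95% interval -0.083 to 0.53, limma, adjusted p = 0.465). Against Nes in the same library, Lrig1 stood at 0.407 and 0.394 at 1 h, 0.386 in 8 h replicate 14, and 0.560 and 0.517 in 8 h replicates 13 and 15. The count columns had 1051 and 1067 CPM at 1 h and 1063, 816 and 1245 CPM in the columns named 8 h replicates 13, 14 and 15, a difference of -0.050 ± 0.18 (SE, edgeR, adjusted p = 0.981). The direction in counts rested on the column that matched no table, and it was 0.11 without that column (edgeR, adjusted p = 0.815). Slc25a26, which overlaps Lrig1 on the opposite strand, had 6.79 to 8.43 TPM.

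Nr2e1 encodes TLX, a nuclear receptor that represses cell cycle inhibitors and keeps adult stem cells able to divide. The gene (ENSMUSG00000019803) lies on chromosome 10, 42561963 to 42583632, minus strand. It had 19.1 and 19.3 TPM at 1 h against 28.4, 19.4 and 30.2 TPM at 8 h. The 8 h libraries were all above the 1 h libraries, with 8 h replicate 14 at 1.01 times the 1 h mean and the series 2 libraries the high ones. After median-ratio scaling 8 h replicate 14 lay between the 1 h libraries. The mean was 19.2 ± 0.141 (SD, n = 2) at 1 h against 26.0 ± 5.77 TPM (SD, n = 3) at 8 h, with a log2 difference of 0.40 ± 0.20 (SE, 95% interval -0.10 to 0.89, limma, adjusted p = 0.442). Counts were 618 and 756 at 1 h and 824, 723 and 1136 in the columns named 8 h replicates 13, 14 and 15, or 44.2, 45.8, 45.7, 49.9 and 61.2 CPM. There the groups overlapped, and the difference was 0.19 ± 0.15 (SE, edgeR, adjusted p = 0.966). Hdac5 and Kdm1a, chromatin enzymes with which TLX represses its targets, had means of 79.6 and 121.4 TPM and log2 fold changes of 0.050 and 0.054 (limma, adjusted p = 0.891 and 0.774); both fold changes turned below 0 after median-ratio scaling, and both genes are named for that role and not by their values.

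Hopx encodes a small homeodomain protein that does not bind DNA itself and marks quiescent stem cells in several tissues. The gene (ENSMUSG00000059325) lies on chromosome 5, 77086988 to 77115121, minus strand. It had 9.01 and 6.61 TPM in the 1 h libraries and 4.76, 8.76 and 4.64 TPM in the 8 h libraries. The groups overlapped, since 8 h replicate 14 lay within the 1 h range and the series 2 libraries were below it. The mean was 7.81 ± 1.70 (SD, n = 2) at 1 h against 6.05 ± 2.34 TPM (SD, n = 3) at 8 h, a log2 difference of -0.36 ± 0.29 (SE, 95% interval -1.07 to 0.36, limma, adjusted p = 0.568). The count table does not list Hopx, and its antisense gene Hopxos was listed at 0 in every library.

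The sequences before the start of these 3 genes are shown because Lrig1 and Nr2e1 were the genes whose groups did not overlap and Hopx was the one with the lowest ratio of series 2 to series 1. RefSeq promoter windows (GRCm38.p6, 250 bases before the start) were matched by symbol for 8 of the 10 genes. Msi1 and Vcam1 had no entry. Each sequence reads 5′ to 3′ on the strand of its gene and covers only bases outside annotated exons. Capitals mark matches on either strand to the E-box letters CACGTG, the CCAAT box letters CCAAT, the GC box letters GGGCGG or the TATA box letters TATAAA.
Lrig1, chr6:94700159-94700395, minus strand: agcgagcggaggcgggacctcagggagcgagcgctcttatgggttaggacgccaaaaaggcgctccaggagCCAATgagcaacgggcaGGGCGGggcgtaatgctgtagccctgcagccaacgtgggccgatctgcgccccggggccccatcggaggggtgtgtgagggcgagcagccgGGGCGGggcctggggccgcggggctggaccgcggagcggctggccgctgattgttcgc
Nr2e1, chr10:42583633-42583821, minus strand: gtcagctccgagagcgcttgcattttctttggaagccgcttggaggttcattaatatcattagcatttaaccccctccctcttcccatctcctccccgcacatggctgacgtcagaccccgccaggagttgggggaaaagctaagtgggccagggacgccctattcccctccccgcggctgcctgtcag
Hopx, chr5:77115124-77115373, minus strand: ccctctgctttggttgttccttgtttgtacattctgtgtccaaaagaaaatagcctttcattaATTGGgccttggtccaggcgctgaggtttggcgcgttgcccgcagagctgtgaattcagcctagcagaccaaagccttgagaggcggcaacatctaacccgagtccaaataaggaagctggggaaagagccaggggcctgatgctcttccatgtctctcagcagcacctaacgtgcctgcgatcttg
The Lrig1 window held 1 CCAAT box and 2 GC boxes, which 32.8% and 30.9% of all 32851 RefSeq promoters hold at least 1 time in a window of that place and length. GC content was 71.7% for Lrig1, 58.2% for Nr2e1 and 52.4% for Hopx, against medians of 51.9%, 51.9% and 52.4% over all promoters. The Nr2e1 window held none of these letters (CCAAT is in 27.8% and GGGCGG in 25.4% of all promoters there), and the Hopx window held 1 CCAAT box (33.8%). None of the 3 had a TATA box or an E-box. No matches to different motifs overlapped in these windows, and a match is a description of the letters only.

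Msi1 and Msi2 encode Musashi RNA-binding proteins, which hold back the translation of Numb and other transcripts that favour differentiation. Msi1 (ENSMUSG00000054256) lies on chromosome 5, 115429599 to 115455698, plus strand, and Msi2 (ENSMUSG00000069769) on chromosome 11, 88339382 to 88718513, minus strand. The longest run of bases that their transcripts share is 44. Msi2 was the more abundant member in every library, by 5.33 and 3.89 times at 1 h and by 2.78, 4.20 and 3.33 times in 8 h replicates 13, 14 and 15. Msi1 had 33.2 and 42.5 TPM at 1 h against 52.7, 34.7 and 50.3 TPM at 8 h. The series 2 libraries were the highest, and 8 h replicate 14 lay between the 1 h libraries. Its log2 fold change was 0.26 ± 0.21 (SE, 95% interval -0.26 to 0.78, limma, adjusted p = 0.572), from 37.9 ± 6.61 TPM (SD, n = 2) to 45.9 ± 9.74 TPM (SD, n = 3). Msi2 had 176.8 and 165.6 TPM in the 1 h libraries and 146.6, 145.8 and 167.5 TPM in the 8 h libraries. Here 8 h replicate 15 lay within the 1 h range and the other 8 h libraries below it, so the groups overlapped. The log2 fold change was -0.16 ± 0.10 (SE, 95% interval -0.42 to 0.094, limma, adjusted p = 0.498), from 171.2 ± 7.93 TPM (SD, n = 2) to 153.3 ± 12.3 TPM (SD, n = 3). Numb itself, given here as the known Musashi target, had 14.8 and 14.7 TPM at 1 h against 17.8, 11.99 and 15.0 TPM at 8 h, with overlapping groups.

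Bmi1 encodes a subunit of Polycomb repressive complex 1, which silences the cell cycle inhibitor locus Cdkn2a in stem cells. The gene (ENSMUSG00000026739) lies on chromosome 2, 18677018 to 18686629, plus strand. It had 105.0 and 90.5 TPM in the 1 h libraries and 106.8, 102.8 and 115.2 TPM in the 8 h libraries. The groups overlapped, with the lowest value in 1 h replicate 2 and the highest in 8 h replicate 15. The mean was 97.7 ± 10.2 (SD, n = 2) at 1 h against 108.3 ± 6.29 TPM (SD, n = 3) at 8 h, a log2 difference of 0.15 ± 0.11 (SE, 95% interval -0.12 to 0.42, limma, adjusted p = 0.538).

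Foxo3 encodes a forkhead factor that insulin and growth factor signals keep out of the nucleus and that supports the quiescent stem cell pool. The gene (ENSMUSG00000048756) lies on chromosome 10, 42181841 to 42276755, minus strand. It had 35.0 and 41.1 TPM at 1 h against 36.1, 34.9 and 37.0 TPM at 8 h. The 8 h libraries lay within a narrow band, and 1 h replicate 2 was the highest library. The mean was 38.1 ± 4.27 (SD, n = 2) at 1 h against 36.02 ± 1.07 TPM (SD, n = 3) at 8 h, a log2 difference of -0.074 ± 0.11 (SE, 95% interval -0.35 to 0.20, limma, adjusted p = 0.758). Its direction rested on 1 h replicate 2, without which it was 0.038 (limma, adjusted p = 0.936). Of the other members of the family, Foxo4 had 18.3 to 22.7 TPM, Foxo1 5.39 to 6.19 TPM and Foxo6 1.43 to 2.31 TPM per library, so Foxo3 was the most abundant of the 4 in each library. Foxo3 and Foxo1 transcripts share a run of 38 bases.

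The identifier series were compared as they divide the 8 h libraries. Both series 2 libraries were above all series 1 libraries for 6 genes (Bmi1, Lrig1, Vcam1, Msi1, Nr2e1 and Prom1), against 39.8% of all genes, and below them for 2 genes (Nes and Hopx), against 13.5% of all genes. Msi2 and Foxo3 overlapped. The ratio of the series 2 mean to the series 1 mean was 2.20 for Prom1, 1.52 for Nr2e1, 1.40 for Msi1, 1.37 for Vcam1, 1.25 for Lrig1 and 1.12 for Bmi1, and it was 0.916 for Nes and 0.578 for Hopx. The median ratio was 1.18 over the 10 genes and 1.11 over all genes tested. Of all genes, 53.3% had no overlap between the series in either direction, against 8 of the 10 genes. Median-ratio scaling, which divides each library by its median ratio to the mean profile, lowered the series 2 libraries (factors of 1.06 and 1.08) against the series 1 libraries (0.959 to 0.973) and changed this pattern. After it, 4 genes were higher in both series 2 libraries (Prom1, Nr2e1, Msi1 and Lrig1, with ratios of 1.99, 1.37, 1.26 and 1.13), against 24.5% of all genes. Then 3 genes were lower (Foxo3, Nes and Hopx, with ratios of 0.893, 0.828 and 0.523), against 24.9% of all genes, and Bmi1, Vcam1 and Msi2 overlapped. Prom1 and Hopx stood at the ends of the order of ratios under both scalings.

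**Figure D3:**
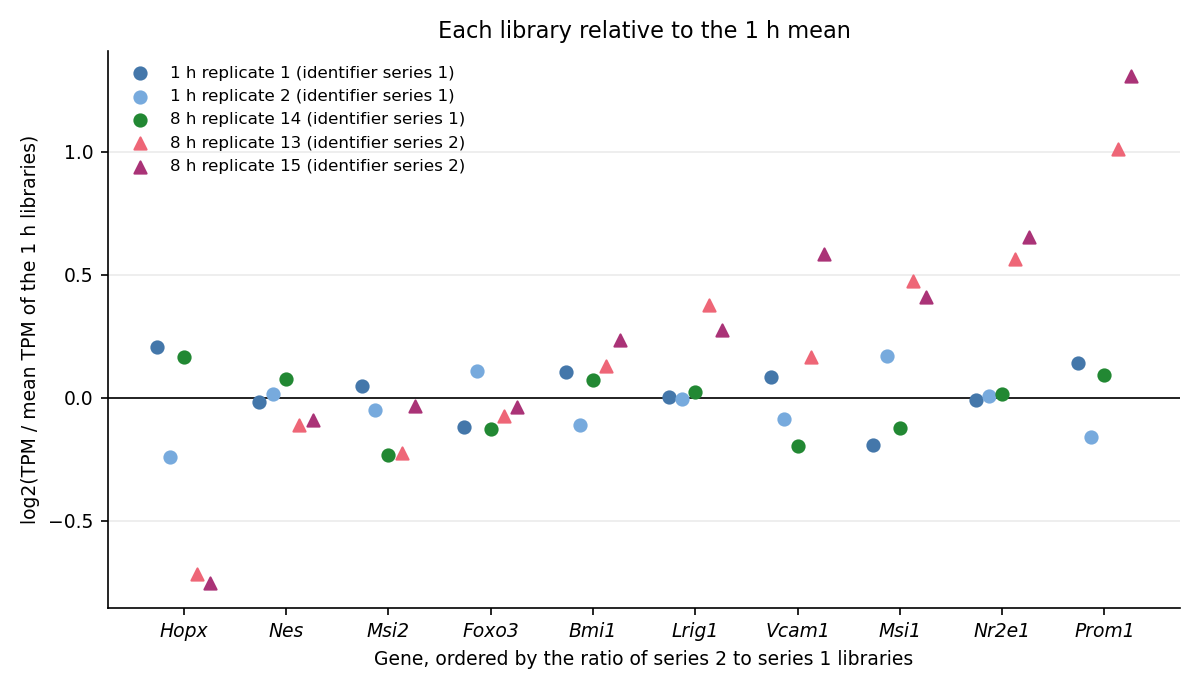
Each library relative to the mean of the 1 h libraries, as the log2 of the TPM ratio, with genes ordered by the ratio of series 2 to series 1. The triangles (8 h replicates 13 and 15) stand lowest for Hopx and highest for Prom1, while the green circle (8 h replicate 14) lies between 0.851 and 1.12 times the 1 h mean.

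Within series 1, 8 h replicate 14 can be set against the 1 h libraries without a change of series. It lay above both 1 h libraries for 3 genes (Nes, Lrig1 and Nr2e1) and below both for 3 genes (Msi2, Foxo3 and Vcam1), against 37.6% and 33.4% of all genes (71.0% in both directions), and between them for the other 4. The ratio of this library to the 1 h mean was lowest for Msi2, at 0.851, and highest for Hopx, at 1.12. For Prom1, Nr2e1 and Lrig1 it was 1.07, 1.01 and 1.02. With the series as a term in limma, time is again 8 h replicate 14 alone against the 1 h libraries, and this single library is assumed to vary as the pairs at 1 h and in series 2 do. The fold changes for time were then 0.078 for Prom1, 0.016 for Nr2e1, 0.024 for Lrig1 and -0.11 for Msi1 (adjusted p = 0.933, 0.982, 0.965 and 0.881), and the lowest adjusted p of the 10 genes was that of Msi2, with -0.23 (0.645). Without 8 h replicate 14, where 8 h against 1 h is the same division as series 2 against series 1, limma still called 0 of the 10 genes, against 4.1% of all genes. There 3 of the 10 genes had an adjusted p of at most 0.05, against 19.9% of all genes (15.7% with a higher value at 8 h). They were Prom1 with 0.995, Nr2e1 with 0.58 and Lrig1 with 0.33 on the log2 scale (limma, adjusted p = 0.0149, 0.0159 and 0.0397). Prom1 thus missed a call narrowly, by the fold threshold alone. Its fold change is on the log2(TPM + 1) scale, which understates the changes of low genes. Whether the differences of these 3 genes belong to time, to the series or to the sex-linked difference between the libraries cannot be told apart.

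The 5 genes of the count table were compared with edgeR as well, and 0 of 5 were called, against 0.0% of 7590 genes. An unadjusted p below 0.05 occurred for 0 of the 5 genes and 2.62% of all genes with edgeR (199 genes), and DESeq2 and limma-voom, with 227 and 178 such genes, also called 0 genes. The groups did not overlap for Nes alone, lower in the columns named 8 h, against 18.7% of all genes in either direction. The fold changes of Lrig1 and Vcam1 had opposite signs in counts and TPM, and none of them passed. Since the column named 8 h replicate 14 had no matching TPM table, the count and TPM results do not rest on the same 5 libraries.

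**Figure D4:**
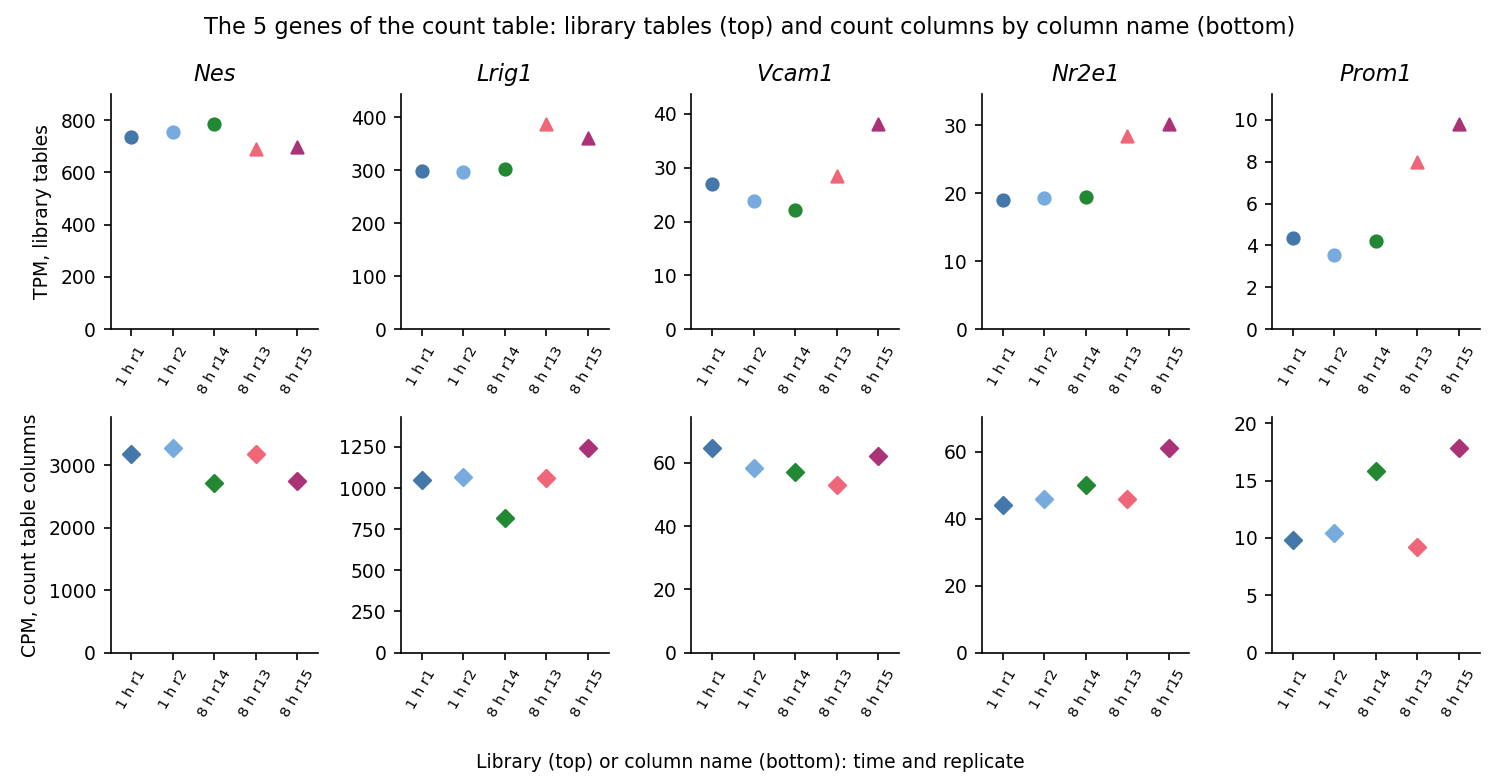
The 5 genes of the count table, with TPM from the library tables in the top row and CPM from the count columns, placed by column name, in the bottom row (all axes start at 0). In the top row the series 2 libraries (triangles) are the high ones for Lrig1, Vcam1, Nr2e1 and Prom1, and in the bottom row the columns named 8 h replicates 14 and 15 are the high ones for Nr2e1 and Prom1.

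Genes that work with the 10 were read from a list of families and partners, of which 22 of 23 were tested. None was called (0 of 22), and an unadjusted p below 0.05 occurred for 2 genes, both higher at 8 h, against 9.52% of all genes in that direction. The median log2 fold change of the list was 0.060, which was -0.042 relative to all genes and -0.045 after median-ratio scaling. Vim, the filament protein that assembles with nestin, had 2112 and 2073 TPM in the 1 h libraries and 2389, 2032 and 2552 TPM in the 8 h libraries, with overlapping groups. Itgb1, the integrin chain of the VCAM1 receptor, had 539 and 531 TPM at 1 h against 589, 555 and 643 TPM at 8 h, all above 1 h (0.15 ± 0.10, SE, limma, adjusted p = 0.507) but overlapping after median-ratio scaling. Among the Polycomb genes, Phc2 had 125.2 and 125.5 TPM in the 1 h libraries and 208.4, 156.6 and 180.6 TPM in the 8 h libraries, a fold change of 0.52 ± 0.14 on the log2 scale (SE, limma, adjusted p = 0.309). Its groups did not overlap, and 8 h replicate 14 was above the 1 h libraries too. The count table gave Phc2 0.084 (edgeR, adjusted p = 0.966). Cbx6 had 36.6 and 41.6 TPM at 1 h against 53.5, 44.4 and 53.8 TPM at 8 h (0.36 ± 0.13, SE, limma, adjusted p = 0.384), and Cbx2 had 9.05 and 9.07 TPM in the 1 h libraries and 13.1, 9.37 and 13.0 TPM in the 8 h libraries (0.33 ± 0.18, SE, limma, adjusted p = 0.454). Both were above 1 h in each 8 h library.

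Markers of quiescent, astrocyte-like stem cells other than the 10 genes were measured in 17 of 18 cases at a mean of at least 1 TPM. None was called with all libraries, and an unadjusted p below 0.05 occurred for 0 genes higher and 2 genes lower at 8 h, against 9.52% and 2.82% of all genes. Without 8 h replicate 14, which leaves the division between the series, limma called 5 of the 17 (against 4.1% of all genes). Gfap, Apoe, Aqp4 and Ntsr2 were higher and Id2 lower in 8 h replicates 13 and 15 than at 1 h. The omitted 8 h replicate 14 lay below both 1 h libraries for 10 of the 17 genes, these 5 included, against 33.4% of all genes. It lay above both for 3, against 37.6%. The list median was 0.34, or 0.24 relative to all genes, and 11 of the 17 were higher and 4 lower in both series 2 libraries (11 and 5 after median-ratio scaling). Of all genes, 39.8% were higher and 13.5% lower in both (24.5% and 24.9% after scaling). Id2 and Id3, inhibitors of differentiation that BMP signals induce, were lower in each 8 h library than in both 1 h libraries. Id2 had 234.7 and 199.95 TPM at 1 h against 90.2, 151.9 and 80.6 TPM at 8 h, a fold change of -1.06 ± 0.28 on the log2 scale (SE, limma, adjusted p = 0.309). Id3 had 175.3 and 204.9 TPM in the 1 h libraries and 138.7, 140.0 and 113.6 TPM in the 8 h libraries (-0.54 ± 0.13, SE, limma, adjusted p = 0.300). Neither passed the test with all libraries, while Id2 was -1.34 without 8 h replicate 14 (limma, adjusted p = 0.00309). In the count table Id2 was -0.53 and Id3 -0.60 (edgeR, adjusted p = 0.966 for both). Slc1a3, the glutamate transporter GLAST of stem cells and astrocytes, had 366 and 362 TPM at 1 h against 589, 379 and 650 TPM at 8 h, with the series 2 libraries the high ones (0.53 ± 0.23, SE, limma, adjusted p = 0.410, against 0.11 in counts). The most abundant genes of the list were Cpe, a peptide-processing enzyme, with 675 and 637 TPM at 1 h against 819, 603 and 785 TPM at 8 h, and Cdkn1a, the cell cycle inhibitor p21, with 607 and 615 TPM at 1 h against 736, 719 and 619 TPM at 8 h.

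Of the 18 genes of activated, dividing stem cells, all were tested and none was called with all libraries. Without 8 h replicate 14, which leaves the division between the series, limma called 4 of them, against 4.1% of all genes. Ccna2, Ccnb1, Cdk1 and Top2a were all higher in 8 h replicates 13 and 15 than at 1 h. The omitted 8 h replicate 14 lay below both 1 h libraries for 12 of the 18 genes, against 33.4% of all genes. It lay above both for 3, against 37.6%. Ccna2, Ccnb1 and Top2a were among the 12, and Cdk1 lay between the 1 h libraries. With all libraries an unadjusted p below 0.05 occurred for 3 genes higher and 2 genes lower at 8 h, against 9.52% and 2.82% of all genes, and the list median was 0.39, or 0.29 relative to all genes. In both series 2 libraries 14 of the 18 were higher and 0 lower (13 and 0 after median-ratio scaling), against 39.8% and 13.5% of all genes (24.5% and 24.9% after it). The median ratio of series 2 to series 1 was 1.47 (1.33 after scaling). Ccnd1 and Ccnd2, the D-type cyclins of the entry into the cycle, were higher in each 8 h library than at 1 h. Ccnd1 had 1191 and 1189 TPM in the 1 h libraries and 1915, 1387 and 1862 TPM in the 8 h libraries (0.52 ± 0.16, SE, limma, adjusted p = 0.365). Ccnd2 had 617 and 650 TPM at 1 h against 893, 726 and 868 TPM at 8 h (0.38 ± 0.12, SE, limma, adjusted p = 0.369, against 0.10 in counts). Their kinase Cdk4 had 598 and 671 TPM in the 1 h libraries and 635, 574 and 665 TPM in the 8 h libraries, with overlapping groups. Dll1, a Notch ligand, and Hes5, a Notch target, were lower in each 8 h library, 8 h replicate 14 included. Dll1 had 73.1 and 87.3 TPM at 1 h against 51.8, 46.0 and 45.8 TPM at 8 h (-0.73 ± 0.12, SE, limma, adjusted p = 0.240). The count table, which does not rest on all the same libraries, did not show this difference for Dll1, at 0.012 (edgeR, adjusted p = 0.997). Hes5 had 13.0 and 24.6 TPM in the 1 h libraries and 6.88, 7.15 and 9.57 TPM in the 8 h libraries (-1.11 ± 0.29, SE, limma, adjusted p = 0.309). None of these named genes passed the test.

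**Figure D5:**
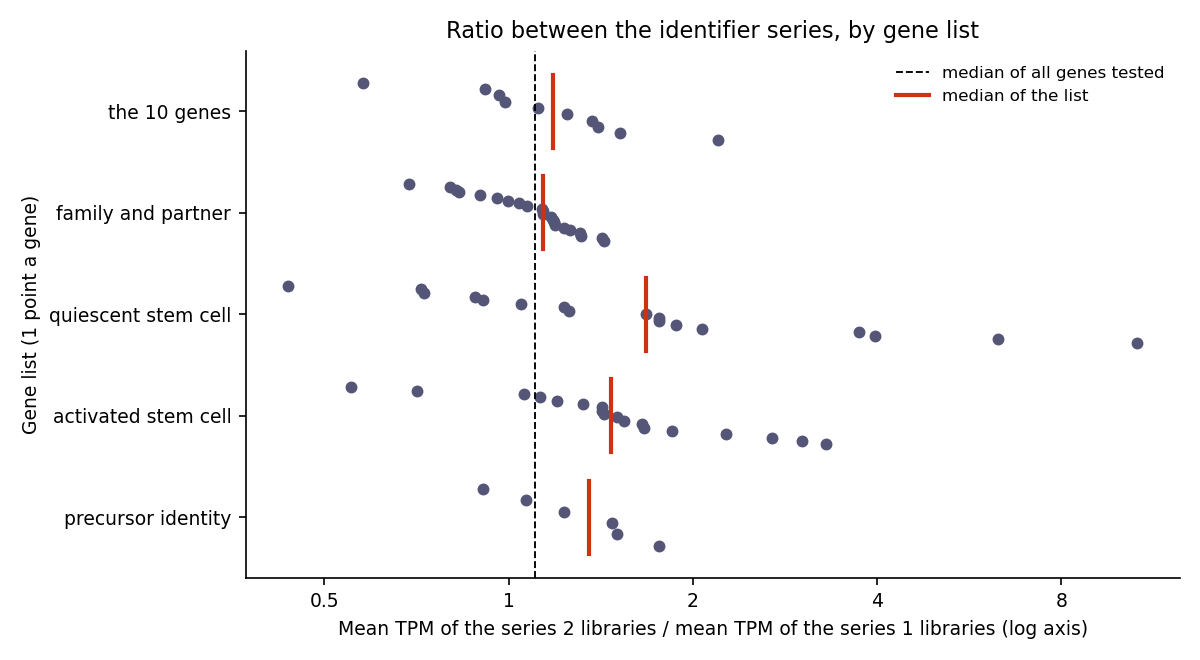
Ratio of the mean TPM of the series 2 libraries to that of the series 1 libraries (log axis), with 1 point per gene, for the 10 genes and the 4 lists. The red line is the median of a list and the dashed line that of all genes tested (1.11); the medians are 1.18 for the 10 genes, 1.14 for the families and partners, 1.68 for quiescent, 1.47 for activated and 1.35 for precursor identity genes.

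Of the 6 genes of precursor identity, 0 were called and 1 had an unadjusted p under 0.05, higher at 8 h (against 9.52% of all genes), with a list median of 0.20, or 0.098 relative to all genes. Fabp7, a fatty acid binding protein of radial glia, had 7679 and 8188 TPM at 1 h against 9280.0, 7687 and 10076 TPM at 8 h, with overlapping groups. Sox2, the transcription factor of neural precursors, had 211.3 and 227.7 TPM in the 1 h libraries and 181.0, 220.2 and 218.0 TPM in the 8 h libraries. Cd9, a tetraspanin, had 162.2 and 154.2 TPM at 1 h against 246.0, 175.2 and 246.9 TPM at 8 h (0.47 ± 0.17, SE, limma, adjusted p = 0.384, against 0.079 in counts). Pax6, a forebrain transcription factor, had 9.09 and 10.2 TPM in the 1 h libraries and 17.5, 10.4 and 17.4 TPM in the 8 h libraries (0.56 ± 0.24, SE, limma, adjusted p = 0.408). Notch1, the receptor whose signal keeps stem cells undifferentiated, had 73.4 and 79.3 TPM at 1 h against 85.7, 81.6 and 81.4 TPM at 8 h (0.12 ± 0.092, SE, limma, adjusted p = 0.560). Cd9, Pax6 and Notch1 were above 1 h in each 8 h library, Notch1 not after median-ratio scaling, and none passed the test.

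Some of the 10 genes are also used by other cells of the forebrain, Vcam1 by endothelium and Prom1 by ependyma, so markers of other cell types were summed in each library. The 6 microglia genes summed to 0.461 to 1.51 TPM, of which P2ry12 had 0.411 to 1.41 TPM. Csf1r was above 0 in every library (at most 0.0653 TPM), Cx3cr1 and Ptprc were above 0 in some, and Aif1 and Tmem119 were listed at 0 in every library. The 6 endothelial genes summed to 11.96 to 15.4 TPM, with Flt1 at 9.71 to 13.6 TPM and Kdr at 1.07 to 1.97 TPM. Pecam1 and Tek were each above 0 in 4 of 5 libraries (at most 0.166 and 0.175 TPM), and Cdh5 and Cldn5 were listed at 0 in every library. The 5 ependymal genes summed to 16.0 to 27.5 TPM, mostly Foxj1, whose lowest values were at 8 h (17.2, 15.4 and 14.4 TPM against 22.4 and 26.7 TPM at 1 h), and Tmem212 was listed at 0 in every library. The 6 neuroblast and neuron genes summed to 30.1 to 53.6 TPM, with Tubb3 at 39.8 and 42.9 TPM at 1 h against 19.02, 37.4 and 19.3 TPM at 8 h. The 6 oligodendrocyte lineage genes summed to 1600 to 2441 TPM, led by Olig1 with 972 to 1630 TPM, which precursors grown in EGF and FGF also express. The mural list moved most with the series, since Acta2, smooth muscle actin, had 79.4 and 75.8 TPM at 1 h against 11.2, 114.0 and 15.8 TPM at 8 h, while its other 3 genes had means under 1 TPM. The part of these cell types in the values of the 10 genes was not tested.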

How the data were processed

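Poly-A selected, stranded libraries of 5 cultures, 2 taken at 1 h and 3 at 8 h, were sequenced from both ends. The authors aligned reads to GRCm38 with STAR through nf-core/rnaseq and counted them with featureCounts; demultiplexing used bcl2fastq 2.19.1.403 per the submitters' processing notes, and the counting's strand setting was not given in the sources used here. Whole read counts were deposited by the authors in a table that was not normalized and was filtered by an unstated rule, with 7599 genes and column totals from 13988166 to 18572154. For each library they also deposited TPM, FPKM and mean coverage per gene. The deposited FPKM and coverage values were not used. No value column was left unassigned, and 0 rows lacked a gene name.

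TPM was summed per gene identifier (15 to 20 extra rows per table) and tested with limma 3.58.1 (R 4.3.3), which modelled log2(TPM + 1) with a mean-variance trend for all genes whose mean reached 1 TPM. On that scale the changes of low genes are understated. Counts were tested with edgeR 4.0.16 (quasi-likelihood, TMM, filterByExpr). The SE given with edgeR was derived from the fold change and the test statistic, since the test does not report one. P-values were adjusted by Benjamini-Hochberg over all genes tested, and a gene was called where the adjusted p was 0.05 or less and the log2 fold change exceeded 1 in size, the study's own thresholds. Scripts were tested on simulated data. Alternatives were pseudocount 0.1, no filter, median-ratio scaling, the identifier series as a term, series 1 alone, each library left out, no fold threshold, DESeq2 1.42.0, limma-voom and RLE size factors. P-values set each difference against the spread between these libraries only, which limma and edgeR estimate with information shared across genes. Genes named by rule are the 10 genes, the most abundant marker of each other cell type, and genes from the lists of partners, quiescence, activation and precursor identity. From each of those lists they are the 3 most abundant and the 3 with the smallest unadjusted limma p. Further genes are named for their role, as relatives, as overlapping genes, for sex or as other markers of a cell type. The quiescence and activation genes called without 8 h replicate 14, and the genes under other observations, were named by their values. The 10 genes and the lists were chosen with earlier results of these data known. Columns were kept under their names. Promoters are RefSeq's (GRCm38.p6), and exons and coordinates were checked against GENCODE vM21.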

Additional observations from a re-analysis of the deposited data

How the results depend on the processing

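None of the 10 genes was called under any setting run, in the TPM tables (0 of 10) or in the count table (0 of 5). The number of genes called among all those tested did move. In the TPM tables it was 6, and it was 0 with no filter on low values, 19 with the identifier series as a term, and between 0 and 568 when each library was left out (568 where 8 h replicate 14 was left out, 1 for 8 h replicate 13, and 0 for 8 h replicate 15 and for each 1 h library). Limma gave 2371, 773, 670 and 856 genes an unadjusted p below 0.05 where it called 0 (no filter, then 1 h replicates 1 and 2 and 8 h replicate 15 left out). In the count table it was 0, and 145 with the columns named as series 1 alone, of which the 8 h column is the one that had no matching table. Fits of series 1 alone take the spread of the single 8 h library to be that of the 1 h libraries. The cause was not tested.

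Signs turned in 11 cases and held in 159. Part of the 159 could not turn, since dropping the fold threshold does not change a fit. Dropping the filter does not change a TPM fold change either. In TPM, the series as a term and series 1 alone give the same fold change, so each such case is counted under both settings. With the identifier series as a term, or series 1 alone, the TPM fold change was 0.075 for Nes, -0.11 for Msi1, 0.16 for Hopx and -0.19 for Vcam1. It was 0.038 for Foxo3 without 1 h replicate 2 and -0.013 for Vcam1 without 8 h replicate 15 (over all libraries left out, Vcam1 ran from -0.013 to 0.37 and Foxo3 from -0.19 to 0.038). In counts Lrig1 was 0.11 without the column named 8 h replicate 14 (from -0.19 to 0.11). The cause was not tested. The lowest adjusted p of any of the 10 genes over the settings was 0.0149 in the TPM tables (limma, Prom1 without 8 h replicate 14) and 0.0357 in counts (edgeR, Lrig1 with series 1 columns alone, -0.41). No paired analysis was possible because the 1 h and 8 h groups share no replicate number.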

Other observations

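Some other genes of the quiescence and cell division lists, chosen after their values were seen, had a ratio of mean TPM between the series 2 libraries and the rest beyond that of any of the 10 genes. Gfap, an intermediate filament of astrocytes and quiescent stem cells, had 4.35, 4.15 and 1.81 TPM in the series 1 libraries (1 h replicates 1 and 2, then 8 h replicate 14), against 26.0 and 47.2 TPM in the series 2 libraries (8 h replicates 13 and 15). Apoe, a lipid carrier of astrocytes, had 71.3, 87.0 and 50.6 TPM in the former 3 libraries and 277 and 276 TPM in the latter. Aqp4, a water channel of astrocytes, had 12.04, 11.1 and 7.33 TPM against 30.7 and 45.2 TPM. The mitotic genes Ccnb1, Ccna2 and Cdk1 had 49.1 to 69.3, 69.3 to 73.8 and 43.9 to 50.6 TPM in the series 1 libraries, and 173.3 to 208.2, 203.5 to 230.9 and 126.6 to 132.8 TPM in the series 2 libraries. Other genes of the quiescence list lay the other way, with ratios of series 2 to series 1 of 0.437 for Id2, 0.728 for Id3, 0.718 for Cdkn1c and 0.883 for Fgfr3. With all libraries, limma called 0 of the 17 quiescence and 0 of the 18 cell division genes tested between 8 h and 1 h (2 and 5 at an unadjusted p below 0.05). Without 8 h replicate 14, where 8 h against 1 h is the division between the series, limma called 5 and 4. Among them were Gfap (2.78), Apoe (1.80), Aqp4 (1.61), Ccnb1 (1.60), Ccna2 (1.55) and Cdk1 (1.44), on the log2 scale. All 6 were higher in 8 h replicates 13 and 15 than at 1 h. Since these genes were chosen by their ratio between the series, their calls add nothing to that ratio. The myelin gene Mbp had 27.8 to 38.5 TPM in the series 1 libraries and 7.96 to 11.0 TPM in the series 2 libraries. Whether these differences belong to time, to the series or to the sex-linked difference cannot be told apart.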
